A study of Mus musculus with 3 samples.

Results

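Excitation-contraction coupling genes encode the proteins with which a muscle fibre turns an electrical signal into a release of stored calcium. Described here are 10 of them, Casq1, Casq2, Trdn, Ryr1, Cacna1s, Cacng1, Jph1, Jph2, Atp2a1 and Atp2a2, of 18193 genes that could be read from the arrays. The genes were chosen by name and function but with earlier results of these data known, so their counts and medians below are descriptions. Each is read from the probe sets that the array annotation assigns to that gene alone, with the probe set of highest mean signal as the main value. The 3 conditions compared had 1 Affymetrix MOE_430_2 array each, and their values are named as with OSM, without OSM and in fresh MuSC. MuSC +OSM were muscle stem cells (MuSC, or satellite cells) kept for 3 days in 10% FBS with 100 ng/mL recombinant oncostatin M (OSM), a cytokine of the interleukin-6 family. MuSC −OSM were kept for 3 days in 10% FBS without OSM. Fresh MuSC were taken directly after sorting and were not cultured. All cells came from the muscle of wild-type C57BL/6 mice 8 weeks of age and were sorted by FACS as CD34+ α7 integrin+ cells, after enzymatic digestion of the muscle and against markers of leukocytes, endothelium and Sca1+ cells. The sources used here do not say whether animals were pooled, and the paper's methods give a higher share of FBS for standard MuSC culture than the labels give for these arrays.

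In a mature fibre the L-type calcium channel of the transverse tubule (Cacna1s with its subunits, among them Cacng1) senses the change in voltage and opens the ryanodine receptor Ryr1 in the facing membrane of the sarcoplasmic reticulum. Junctophilins (Jph1, Jph2) hold both membranes together at the triad, calsequestrins (Casq1, Casq2) bind calcium inside the store, and triadin (Trdn) links calsequestrin to the release channel. The SERCA pumps (Atp2a1, Atp2a2) then return calcium to the store. Quiescent satellite cells have no contractile apparatus, and most of these genes are switched on as myoblasts differentiate and fuse. Atp2a2, in some of its transcripts, also serves most other cells.

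MAS5, with which the authors made the values, gives 1 linear signal per probe set and brings all arrays to the same mean. Because there was 1 array per condition, no difference has a replicate check, no test was possible, and every fold below compares single arrays. Before ratios were taken, signals under 40 (the median over the 3 arrays, called the floor) were set to 40, and "at least" marks a fold in which the weaker signal was so raised. A gene counted as measured where 1 of the arrays compared was above the floor, and as higher or lower from 2-fold on. A gene whose fold is such a bound and under 2-fold was counted as neither. Between 45.9% and 56.8% of the probe sets of an array were above the floor, with the highest share in fresh MuSC. The 3′ to 5′ ratio of the β-actin control, a sign of RNA integrity, was 1.41 in MuSC +OSM and 1.40 in MuSC −OSM, against 2.35 in fresh MuSC, and its part in the culture ratios was not tested. Signals of different probe sets are not on a common scale, so genes are compared by ratios of 1 probe set between arrays. Sums of signals over a marker list are given only as a description and are set mainly by the genes of highest signal. What is called the OSM ratio is MuSC +OSM over MuSC −OSM, and the culture ratio is MuSC −OSM over fresh MuSC. In RNA of a whole culture, fewer cells that express a gene and less RNA per cell cannot be told apart.

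All 10 genes shared an order of signals, with MuSC −OSM highest, MuSC +OSM between and fresh MuSC lowest, an order found in 20.3% of 12888 genes above the floor on any array. By the OSM ratio, 5 of the 10 genes were at least 2-fold lower, namely Casq1, Casq2, Trdn, Jph1 and Cacna1s, and 0 were higher, whereas 4.39% of 11271 measured genes were lower and 6.07% were higher. The signal was lower to any extent in 10 of 10 genes, against 50.2% of all genes. The 10 genes' median log2 ratio was -1.07 (range -2.87 to -0.41), and the median of all measured genes was -0.01. Culture without OSM set all 10 genes at least 2-fold above fresh MuSC (culture ratio, 10 of 10), where 15.0% of 12755 genes were higher and 20.4% lower. The median log2 ratio was 3.65 (2.54 to 5.08) for the 10 genes and -0.14 for all genes. Cells with OSM had 9 of 10 genes at least 2-fold above fresh MuSC and Casq1 was not (MuSC +OSM over fresh MuSC), where 13.8% of 12483 genes were higher and 17.2% lower. Here the median log2 ratio was 2.88 (0.79 to 3.86), beside -0.14 for all genes. These 3 comparisons share arrays, so that their ratios are not independent of each other.

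**Figure D1:**
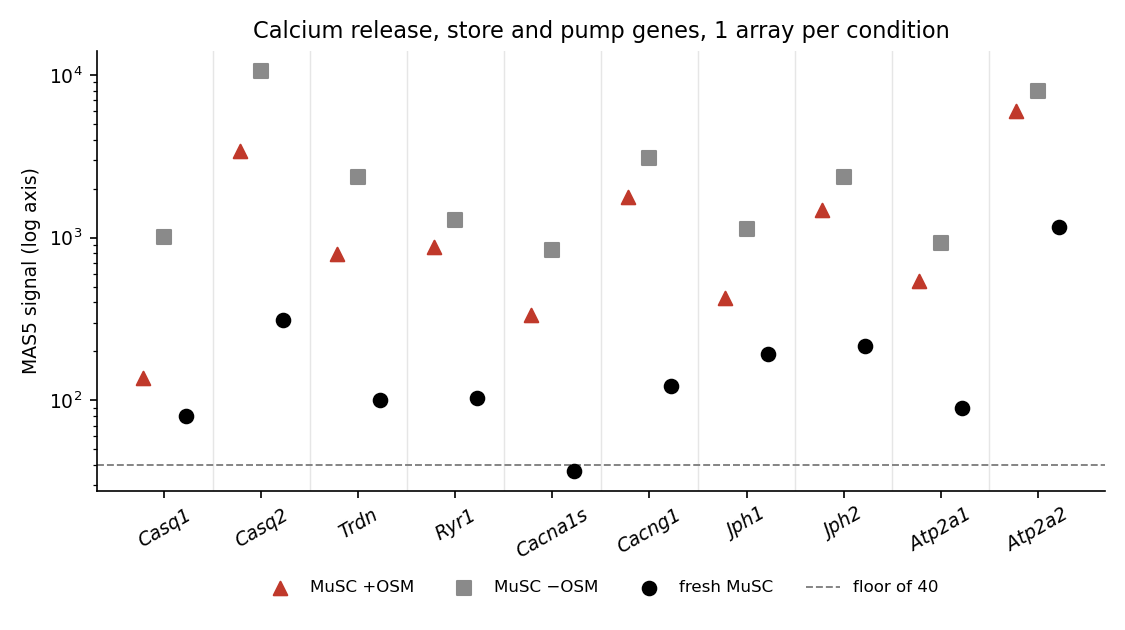
MAS5 signal (log axis) of the main probe set of each of the 10 genes, with MuSC +OSM as red triangles, MuSC −OSM as gray squares, fresh MuSC as black circles, 1 array each, and the floor of 40 dashed. The gray square is the highest point and the black circle the lowest for each gene, and the red triangle lies closest to the black circle for Casq1, at 138 and 80.

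The genes were also looked at by their promoters, since 10 of 10 ran in the same order. RefSeq windows on GRCm38.p6 were at hand for 6 of the 10 genes, and the 250 bases before the start site were searched on both strands for 4 short motifs. Promoters of Cacng1, Jph1, Atp2a2 and Trdn are named only. CAGCTG is 1 form of the E-box (CANNTG) that myogenic bHLH factors bind, and E-box below means CAGCTG only. It was found in 4 of 6 genes (Cacna1s, Casq1, Jph2 and Atp2a1) and in 13.0% of 32851 windows of the same length. It was not found in the windows of Casq2 and Ryr1. Other forms of CANNTG were not searched, so its absence does not show that an E-box is absent. The Casq2 window holds CACTTG and CAACTG, which have the wider form. TTCNNNGAA, the core of a STAT site, was in 0 of 6 genes and 7.02% of windows. A MEF2-type motif, CTA and TAG separated by 4 bases, was in 0 of 6 genes and 3.20% of windows. This string is a narrow form, so its absence does not show that a MEF2 site is absent. The Casq2 window holds TTATTTTTAG, which departs from the string only in its first base. A CArG-like motif, CC and GG separated by 6 bases of any kind, was in 5 of 6 genes (Casq2 being the exception) and, as a loose pattern, in 67.1% of windows. In Atp2a1 the E-box overlaps 1 of these CArG-like matches. The E-boxes are shown in capitals, with up to 30 bases on each side and read 5′ to 3′ along the gene's strand, because among the 4 motifs it had the largest gap between its share of these genes and its share of all windows.
Cacna1s, chr1:136052658-136052723, plus strand: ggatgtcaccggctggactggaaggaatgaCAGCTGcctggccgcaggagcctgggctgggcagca
Casq1, chr1:172220055-172220120, minus strand: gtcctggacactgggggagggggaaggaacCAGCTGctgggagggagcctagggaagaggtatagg
Jph2, chr2:163397974-163398032, minus strand: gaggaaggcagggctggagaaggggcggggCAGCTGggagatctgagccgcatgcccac
Atp2a1, chr7:126463093-126463158, minus strand: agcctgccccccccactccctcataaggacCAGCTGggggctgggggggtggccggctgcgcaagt
The E-box begins at position -123 from the start site in Cacna1s, at -195 in Casq1 and at -55 in Atp2a1. For Jph2, which has 2 start sites in the table, it begins at -9 or -29. Genes with CAGCTG had log2 OSM ratios from -2.87 (Casq1) to -0.66 (Jph2). Casq2 and Ryr1, without this string, had -1.64 and -0.55, so the ranges overlap. A match is a description of the letters, and no binding was measured.

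Genes of the calcium store had the 3 lowest OSM ratios of the 10. Casq1, the calsequestrin of fast skeletal fibres, had a signal of 138 with OSM, 1011 without OSM and 80 in fresh MuSC. It was thus 7.33-fold lower with OSM than without, and 1.73-fold higher in MuSC +OSM than in fresh MuSC, so that the cultured cells with OSM lay within 2-fold of uncultured ones. No other of the 10 genes did so, and Casq1 itself passed 2-fold, at a log2 ratio of 1.51 once arrays were centred on their medians and of 1.21 after quantile normalization. Casq2, the calsequestrin of heart and slow fibres, had 3405 with OSM, 10616 without OSM and 313 in fresh MuSC. It was 3.12-fold lower with OSM, yet still 10.9-fold higher in MuSC +OSM than in fresh MuSC, and its culture ratio of 33.9-fold was the highest of the 10 genes. Each calsequestrin has 1 probe set of its own on the array, so neither has a check by another probe set, and that of Casq2 is of the type that can match several transcripts.

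The calsequestrin pair thus differed in size but not in direction. The log2 ratio of Casq1 minus that of Casq2 was -1.23 for the OSM ratio (-2.87 and -1.64) and -1.42 for the culture ratio (3.66 and 5.08). For MuSC +OSM over fresh MuSC it was -2.66, with 0.79 for Casq1 and 3.44 for Casq2, so Casq1 had the lower ratio of the pair in each comparison.

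Trdn had 790 with OSM, 2372 without OSM and 101 in fresh MuSC, a 3.00-fold lower signal with OSM. It has 6 probe sets, the most of the 10 genes together with Atp2a2, and all 6 gave the same picture. In MuSC +OSM the other 5 had signals of 668, 504, 178, 101 and 96, and in MuSC −OSM the same probe sets had 2023, 1218, 948, 412 and 271. All 5 were at least 2-fold lower with OSM, by log2 ratios between -2.41 and -1.27. In fresh MuSC only 1 of these 5 was above the floor, at 41, and the others had 26, 30, 3 and 7. Triadin was therefore the gene with the best internal check among the 10.

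Of 8 further store proteins and chaperones, 3 were at least 2-fold lower with OSM than without and 0 were higher (4.39% and 6.07% of all genes). Counts in groups this small, here and below, are descriptions. Srl, which encodes sarcalumenin, a calcium-binding glycoprotein of the sarcoplasmic reticulum, had 5056 with OSM, 11379 without OSM and 472 in fresh MuSC. It was 2.25-fold lower with OSM and 24.1-fold higher in MuSC −OSM than in fresh MuSC. Hrc, the histidine-rich calcium-binding protein that binds triadin, had 973 with OSM, 2311 without OSM and 176 in fresh MuSC, 2.38-fold lower with OSM. Both genes are store proteins that are largely restricted to striated muscle, as the calsequestrins are. The trimeric cation channels that balance charge during calcium release divided. Tmem38a, the form of excitable tissue, had 401 with OSM, 927 without OSM and 113 in fresh MuSC and was 2.31-fold lower with OSM. Tmem38b, the broadly expressed form, had 2699 with OSM, 2460 without OSM and 383 in fresh MuSC, a 1.10-fold difference with OSM after a 6.42-fold higher signal in MuSC −OSM than in fresh MuSC. The general chaperones of the endoplasmic reticulum, which every cell uses, were within 2-fold between both cultures. Canx, which encodes calnexin, had 4433 with OSM, 6559 without OSM and 4178 in fresh MuSC.

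For the release channel the call depended on the probe set. Ryr1 had 878 with OSM, 1287 without OSM and 103 in fresh MuSC, 1.47-fold lower with OSM and within the 2-fold threshold. Its other probe set had 606 with OSM, 1323 without OSM and 78 in fresh MuSC and was 2.18-fold lower with OSM. Both had the same order of the 3 arrays, and their culture ratios were 12.5-fold and 17.0-fold. Ryr3, a ryanodine receptor found in several tissues and in developing muscle, ran the other way in culture, at 29 with OSM and 23 without, both under the floor, and 355 in fresh MuSC. Without OSM it was therefore at least 8.88-fold lower after culture. Ryr2, the receptor of the heart, was under the floor on all 3 arrays, at 16 with OSM, 26 without OSM and 16 in fresh MuSC.

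Among 9 measured genes for partners of the release channel and other release channels, 1 was lower with OSM and 0 were higher (4.39% and 6.07% of all genes). This was Asph, whose locus encodes an aspartyl hydroxylase and, from other transcripts, the triadin-like protein junctin. Its main probe set had 326 with OSM, 1286 without OSM and 65 in fresh MuSC, 3.94-fold lower with OSM and 19.8-fold higher in MuSC −OSM than in fresh MuSC. The 5 other probe sets of Asph divided in culture. One had 326 with OSM, 1116 without OSM and 129 in fresh MuSC, close to the main one. By contrast 412 with OSM, 622 without OSM and 600 in fresh MuSC were read by another, which is 1.51-fold lower with OSM and differs by 1.04-fold between MuSC −OSM and fresh MuSC. The files do not say which transcript of Asph each probe set reads. Jsrp1, which encodes the junctional protein JP-45, had 1141 with OSM, 1499 without OSM and 408 in fresh MuSC. The FK506-binding proteins, which stabilize the closed channel, were not counted as lower or higher between the cultures. Fkbp1a had 4856 with OSM and 6303 without. Fkbp1b had 35 in MuSC +OSM, under the floor, and 70 in MuSC −OSM, at least 1.75-fold lower with OSM.

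The voltage sensor of the transverse tubule included a gene that was not above the floor before culture. Cacna1s, the pore and voltage-sensing subunit, had 335 with OSM, 834 without OSM and 37 in fresh MuSC, the only signal of the 10 genes under the floor. It was 2.49-fold lower with OSM and at least 20.8-fold higher in MuSC −OSM than in fresh MuSC. Cacng1, the γ subunit of the same channel, had 1766 with OSM, 3107 without OSM and 122 in fresh MuSC. Its ratio with OSM was 1.76-fold lower, within the threshold, and its 14.5-fold ratio in MuSC +OSM over fresh MuSC was the highest of the 10 genes in that comparison. Both subunits of the channel thus had lower signals with OSM, on either side of the 2-fold threshold, by ratios that single arrays cannot tell apart.

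Of 6 further genes listed with the voltage sensor, 4 were measured in the cultures, with 1 lower and 0 higher (4.39% and 6.07% of all genes). Cacng6, another γ subunit, had 287 with OSM, 748 without OSM and 24 in fresh MuSC, 2.61-fold lower with OSM. Cacnb1, the β subunit needed to bring the channel to the triad, had 280 with OSM, 445 without OSM and 20 in fresh MuSC, 1.59-fold lower with OSM. Cacna2d1, the α2δ subunit, was 1.01-fold apart between the cultures, at 1585 with OSM and 1594 without, and had 615 in fresh MuSC. Stac3, the adaptor that couples this channel to the ryanodine receptor, differed from the 10 genes in direction, also once arrays were centred on their medians or quantile-normalized. It had 1565 with OSM, 1118 without OSM and 61 in fresh MuSC, 1.40-fold above MuSC −OSM with OSM and 18.3-fold higher in MuSC −OSM than in fresh MuSC.

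Of the junctophilins, Jph1 passed the threshold and Jph2 did not. Jph1, the form of skeletal muscle, had 424 with OSM, 1131 without OSM and 194 in fresh MuSC, 2.67-fold lower with OSM and 2.19-fold higher in MuSC +OSM than in fresh MuSC. Jph2, shared by heart and skeletal muscle, had 1488 with OSM, 2359 without OSM and 216 in fresh MuSC, 1.59-fold lower with OSM and 6.89-fold higher in MuSC +OSM than in fresh MuSC. The log2 ratio of Jph1 minus that of Jph2 was -0.75 for the OSM ratio and -0.91 for the culture ratio. Each gene has another, dimmer probe set, with smaller culture ratios of 1.86-fold for Jph1 and 1.71-fold for Jph2. That of Jph1 had 64 with OSM, 95 without OSM and 51 in fresh MuSC, a 1.48-fold lower signal with OSM. For Jph2 it had 56 with OSM, 108 without OSM and 63 in fresh MuSC, 1.93-fold lower with OSM. With these probe sets neither gene reached 2-fold in any comparison, and Jph2 in MuSC +OSM was no longer above fresh MuSC. The order of the pair was then reversed for the OSM ratio and for the culture ratio.

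The other genes of membrane architecture and excitability gave 1 of 7 lower with OSM and 0 higher (4.39% and 6.07% of all genes). Sypl2, which encodes the triad protein mitsugumin 29, had 77 with OSM, 284 without OSM and 22 in fresh MuSC, 3.69-fold lower with OSM. Its other probe sets were under the floor on each array. Genes of the forming transverse tubule were far higher in culture than in fresh MuSC and within 2-fold between cultures. Cav3, the muscle caveolin, had 4322 with OSM, 4273 without OSM and 150 in fresh MuSC, 1.01-fold apart between the cultures and 28.5-fold higher in MuSC −OSM than in fresh MuSC. Bin1, which bends the tubule membrane, had 3025 with OSM, 4572 without OSM and 372 in fresh MuSC, 1.51-fold lower with OSM. Dysf, the membrane repair protein dysferlin, had 239 with OSM, 454 without OSM and 17 in fresh MuSC, 1.90-fold lower with OSM. Cav3 at 1.01-fold and Sypl2 at 3.69-fold, each read from 1 probe set above the floor, thus differed on these single arrays.

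Both calcium pumps stayed within 2-fold between the cultures. Atp2a1, the SERCA1 pump of fast fibres, had 543 with OSM, 927 without OSM and 90 in fresh MuSC, 1.71-fold lower with OSM and 10.3-fold higher in MuSC −OSM than in fresh MuSC. Atp2a2, the SERCA2 pump, which in its different transcripts serves slow and cardiac muscle and most other cells, had 5984 with OSM, 7927 without OSM and 1157 in fresh MuSC. It was 1.32-fold lower with OSM, the smallest difference of the 10 genes. Between the pumps the log2 ratio of Atp2a1 minus that of Atp2a2 was -0.37 for the OSM ratio and 0.59 for the culture ratio.

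The 6 probe sets of Atp2a2 did not share a direction. Next to the main one, a probe set at 3392 with OSM, 4544 without OSM and 528 in fresh MuSC was 8.61-fold higher in MuSC −OSM than in fresh MuSC. Yet another had 3427 with OSM, 3283 without OSM and 2386 in fresh MuSC, only 1.38-fold higher. The opposite direction was seen in a probe set at 280 with OSM, 186 without OSM and 980 in fresh MuSC, a log2 culture ratio of -2.40. It was also seen in the dimmest, at 65 with OSM, 22 without OSM and 235 in fresh MuSC, a log2 culture ratio of -2.55 or lower. Between both cultures 5 of the 6 stayed within 2-fold, and the dimmest, under the floor without OSM, was at least 1.62-fold higher with OSM, so that its place relative to 2-fold is not known. The files do not name the transcripts that these probe sets read, so the culture ratio of this gene holds for part of its probe sets.

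**Figure D2:**
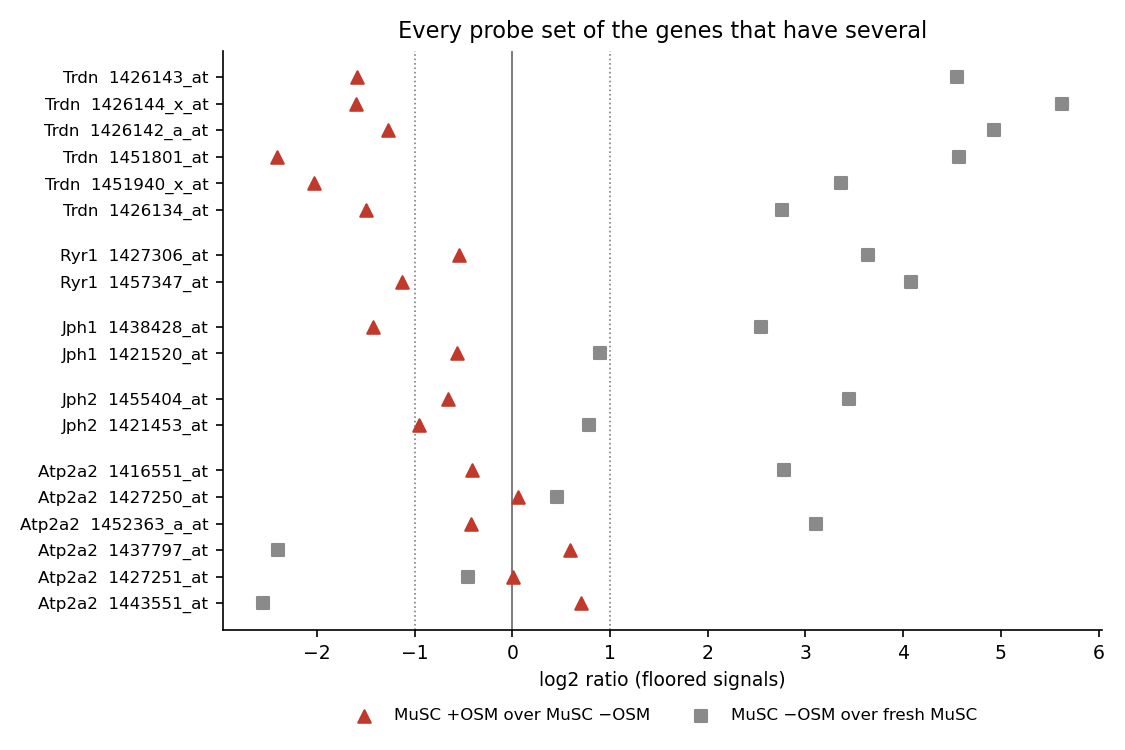
Log2 ratio of each probe set of the 5 genes that have more than 1, where red triangles are the OSM ratio (MuSC +OSM over MuSC −OSM) and gray squares the culture ratio (MuSC −OSM over fresh MuSC), 1 row per probe set and the main one first within each gene. Dotted lines mark 2-fold, ratios with a signal under the floor are bounds, and all 6 rows of Trdn lie beyond 2-fold on opposite sides of 0, whereas the gray squares of Atp2a2 run from -2.55 to 3.11.

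Over the 5 genes with several probe sets, 13 further probe sets were above the floor on 1 of the arrays compared. With OSM against without, 9 of the 13 had the direction of the main probe set and 6 were at least 2-fold lower, 5 of them of Trdn and 1 of Ryr1. The 4 of opposite direction were all of Atp2a2. Between MuSC −OSM and fresh MuSC, 10 of 13 had the same direction, with 7 at least 2-fold higher and 2 at least 2-fold lower. Casq1, Casq2, Cacna1s, Cacng1 and Atp2a1 rest on 1 probe set each.

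Regulators of the pumps and other routes of calcium removal did not share a direction with OSM. Sln, which encodes sarcolipin, a small inhibitor of the pump, had 1832 with OSM, 1629 without OSM and 87 in fresh MuSC, 1.12-fold above MuSC −OSM with OSM and 18.7-fold higher in MuSC −OSM than in fresh MuSC. Pln, which encodes the related inhibitor phospholamban, was under the floor in both cultures, at 26 with OSM and 15 without, and had 66 in fresh MuSC. Of the 4 measured genes in this group 1 was higher with OSM and 0 were lower (6.07% and 4.39% of all genes). This was Pvalb, which encodes parvalbumin, the cytosolic calcium buffer of fast fibres, at 166 with OSM, 6 without OSM and 52 in fresh MuSC. Its signal was at least 4.15-fold higher with OSM and rests on 1 probe set. Atp2b1, a pump of the plasma membrane, had 1158 with OSM, 1353 without OSM and 685 in fresh MuSC, and Atp2a3, the SERCA pump of non-muscle cells, had 98 with OSM, 176 without OSM and 160 in fresh MuSC. Both were within 2-fold in each comparison.

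Genes for store refilling, sodium-calcium exchange and mitochondrial uptake gave 1 of 8 higher with OSM and 0 lower (6.07% and 4.39% of all genes). Slc8a3, a sodium-calcium exchanger, had 212 with OSM, 96 without OSM and 68 in fresh MuSC, 2.21-fold higher with OSM. It missed 2-fold after quantile normalization, at a log2 ratio of 0.97, and its other probe set was under the floor on all 3 arrays. Orai1, the channel through which emptied stores are refilled, had 466 with OSM, 772 without OSM and 157 in fresh MuSC, 1.66-fold lower with OSM and 4.92-fold higher in MuSC −OSM than in fresh MuSC. Stim2, a sensor of the store's calcium, had 1796 with OSM, 1910 without OSM and 690 in fresh MuSC, and Mcu, the mitochondrial uniporter, had 691 with OSM, 945 without OSM and 330 in fresh MuSC. Stim2 and Mcu had culture ratios of 2.77-fold and 2.86-fold. Of the 9 genes of this group measured in that comparison, 4 were higher, 1 was lower and 4 were within 2-fold. Over all genes 15.0% were higher and 20.4% lower there. The lower one was Trpc1, a cation channel, with 37 without OSM, under the floor, and 261 in fresh MuSC, at least 6.53-fold lower.

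Among 12 genes for targets of the calcium signal, 3 were lower with OSM and 0 higher (4.39% and 6.07% of all genes). Camk2a, a calmodulin-dependent kinase, had 65 with OSM, 276 without OSM and 40 in fresh MuSC, 4.25-fold lower with OSM. Its next probe sets were dimmer and each 2.02-fold lower, at 56 and 41 with OSM and 113 and 83 without. Another ran the other way in culture, at 6 without OSM, under the floor, and 71 in fresh MuSC. Mylk2, the myosin light chain kinase of skeletal muscle, had 37 in MuSC +OSM, under the floor, 94 in MuSC −OSM and 55 in fresh MuSC, at least 2.35-fold lower with OSM. Nfatc2, a calcineurin-dependent transcription factor, had another course, at 45 with OSM, 131 without OSM and 616 in fresh MuSC. It was 2.91-fold lower with OSM than without, and 4.70-fold lower without OSM than in fresh MuSC, and its next probe set, at 73 with OSM and 79 without, was 1.08-fold lower. Subunits of calcineurin were within 2-fold between the cultures, with Ppp3r1 at 1492 with OSM, 1707 without OSM and 807 in fresh MuSC, and Ppp3ca at 1253 with OSM, 1197 without OSM and 800 in fresh MuSC. Camk2d, a broadly expressed kinase of the Camk2a family, had 208 with OSM, 336 without OSM and 134 in fresh MuSC.

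Over the whole list of further calcium handling genes, which had 68 entries of which 63 were used here, 9 of 52 measured genes were lower with OSM and 2 higher (4.39% and 6.07% of all genes), with a median log2 OSM ratio of -0.25. Lower were Asph, Srl, Hrc, Tmem38a, Cacng6, Sypl2, Camk2a, Nfatc2 and Mylk2, 7 of them with a culture ratio of at least 2-fold, with Nfatc2 and Mylk2 as the exceptions. By the culture ratio 22 of 58 genes were higher and 8 lower (15.0% and 20.4% of all genes), with a median log2 of 0.62. Against fresh MuSC the cells with OSM had 20 of 56 higher and 8 lower (13.8% and 17.2% of all genes), with a median of 0.54. Signals had the order of the 10 genes, with MuSC −OSM highest and fresh MuSC lowest, in 23 of 58 genes, beside 20.3% of all genes. Genes with culture ratios of 18.3-fold and above were not all lower with OSM. This cut is the culture ratio of Stac3 itself. Stac3, Sln and Cav3 had log2 OSM ratios of 0.49, 0.17 and 0.02, none of which turned below 0 with either other scaling. The others in that range, the 10 genes included, ran from -0.82 for Cacng1, within 2-fold, to -1.98 for Asph. Between these lay Srl (-1.17), Cacna1s (-1.32), Cacng6 (-1.38), Trdn (-1.59) and Casq2 (-1.64).

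**Figure D3:**
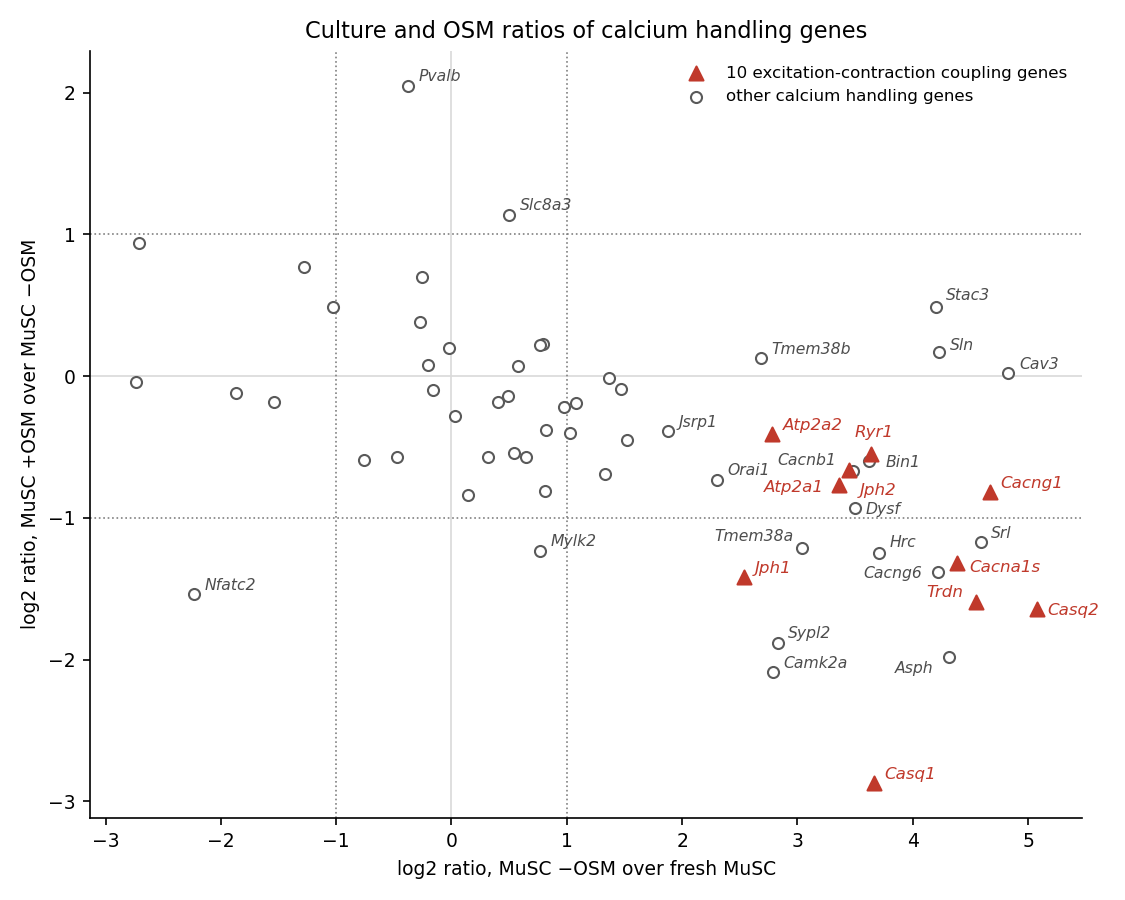
Log2 culture ratio (MuSC −OSM over fresh MuSC, x axis) against log2 OSM ratio (MuSC +OSM over MuSC −OSM, y axis) for the 10 genes (red triangles) and the further calcium handling genes measured in both comparisons (open circles), with dotted lines at 2-fold and bounds drawn at their value. The red triangles all lie to the right and below 0, with Casq1 lowest at -2.87, whereas Stac3, Sln and Cav3 lie as far to the right but between 0.02 and 0.49, and since the MuSC −OSM array enters both axes the slope of the cloud is not read.

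Set among all 11271 measured genes by the OSM ratio, Casq1 had the lowest value, although genes under the floor in MuSC +OSM have only a bound and their place is not known. Casq2 stood at rank 119 from the lowest, Trdn at 134, Jph1 at 188 and Cacna1s at 228. Cacng1 followed at 801, Atp2a1 at 887, Jph2 at 1207, Ryr1 at 1610 and Atp2a2 at 2407. By their main probe sets the junctophilins thus lay far from each other, with Jph2 behind the pump Atp2a1. Their other probe sets, at log2 OSM ratios of -0.57 for Jph1 and -0.95 for Jph2, had the reverse order. Neighbours such as Casq2 and Trdn, 3.12-fold and 3.00-fold lower, cannot be told apart on single arrays. For the culture ratio the order was another, with Casq2 (33.9-fold), Cacng1 (25.5-fold) and Trdn (23.5-fold) highest, Cacna1s at 20.8-fold or above, and Atp2a2 (6.85-fold) and Jph1 (5.83-fold) lowest.

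**Figure D4:**
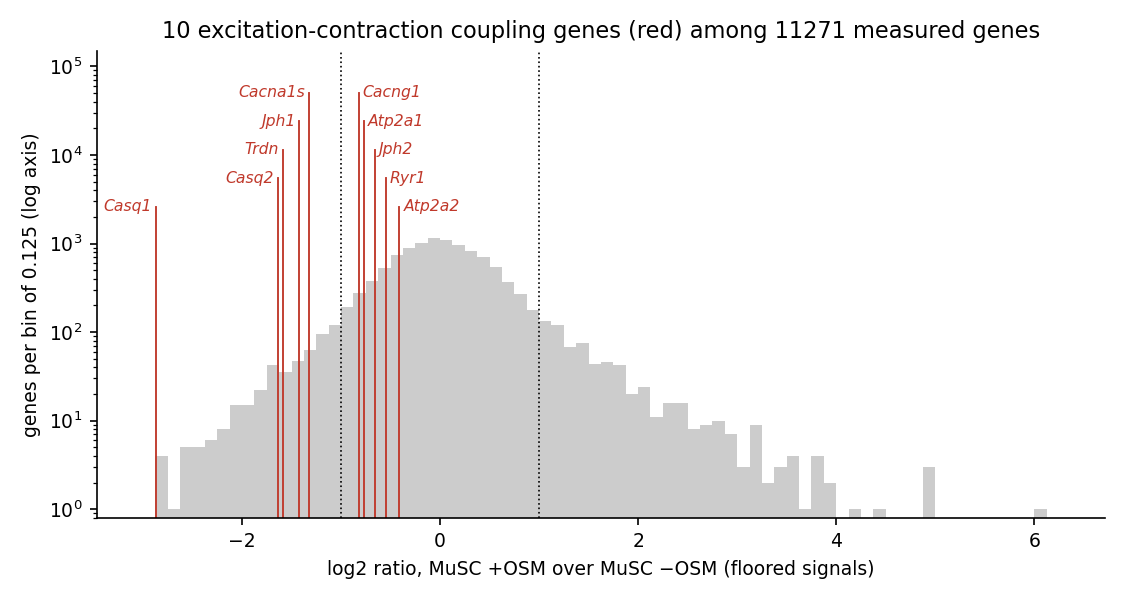
Number of measured genes (log axis) by log2 OSM ratio (MuSC +OSM over MuSC −OSM) in equal bins, with the 10 genes as red lines whose heights carry no value and dotted lines at 2-fold. The red lines lie between -2.87 and -0.41, all left of 0, and 5 of them lie left of the lower 2-fold line.

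Among 7531 genes above the floor in MuSC −OSM whose highest signal was at least 5 times the floor, the 5 whose pair of log2 ratios lay closest to the median pair of the 10 genes (-1.07 for the OSM ratio and 3.65 for the culture ratio) were Alpk3, Bex1, Serinc2, 2310043L19Rik and Zdbf2. Likeness here is the distance in these ratios over 3 arrays, which was 0.02 for Alpk3 and 0.17 for Zdbf2. Alpk3, which encodes an alpha kinase of muscle, had 611 with OSM, 1286 without OSM and 101 in fresh MuSC. Bex1 had 8031 with OSM, 17359 without OSM and 1305 in fresh MuSC. Serinc2 had 248 with OSM, 502 without OSM and 43 in fresh MuSC. 2310043L19Rik had 211 with OSM, 478 without OSM and 4 in fresh MuSC, under the floor, so that its culture ratio is a bound. Zdbf2 had 1233 with OSM, 2823 without OSM and 242 in fresh MuSC.

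Markers of differentiation moved with the 10 genes. The summed signal of 14 genes listed as embryonic and neonatal sarcomere was 115017 with OSM, 207955 without OSM and 17230 in fresh MuSC. The list name is loose, since it holds Chrng, an acetylcholine receptor subunit, and genes that adult fibres also express, such as Acta1 and Mylpf. Of the 14 listed genes, 5 were at least 2-fold lower with OSM and 0 higher (4.39% and 6.07% of all genes), with a median log2 ratio of -0.87. In MuSC −OSM over fresh MuSC 14 of 14 were at least 2-fold higher, beside 15.0% of all genes. The highest signals were those of Acta1, skeletal actin, at 15326 with OSM, 23868 without OSM and 4243 in fresh MuSC, and Mylpf, a fast myosin light chain, at 13476 with OSM, 23045 without OSM and 2499 in fresh MuSC. The sum of 6 regulators of differentiation was 22986 with OSM, 36698 without OSM and 3578 in fresh MuSC. Of these regulators 0 of 6 passed 2-fold between the cultures (4.39% of all genes were lower and 6.07% higher), with a median log2 ratio of -0.78. Myog, which encodes the differentiation factor myogenin, had 14369 with OSM, 21248 without OSM and 1530 in fresh MuSC, 1.48-fold lower with OSM. It had the smallest difference of the 6 regulators, which ran to 1.93-fold lower for Myf6. The 5 sarcomere list genes past 2-fold were Tnnc2 (4.23-fold lower), Chrng (3.65-fold), Myh8 (2.80-fold), Tnnt3 (2.63-fold) and Myh3 (2.58-fold), a range that takes in the ratios of Casq2, Trdn and Jph1. What share of the ratios of the 10 genes goes with the number of differentiating cells was not tested.

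Genes of adult fibres summed to 32607 with OSM, 61939 without OSM and 5934 in fresh MuSC. Of these, 3 of 10 measured genes were lower with OSM and 1, Pvalb, was higher (4.39% and 6.07% of all genes). Satellite cell markers were mostly lower in culture, where 6 of 9 had a culture ratio at least 2-fold lower, beside 20.4% of all genes. Itga7 (3.62-fold) and Myod1 (4.08-fold) of these markers were higher, as the 10 genes were, beside 15.0% of all genes. The satellite cell markers had a sum of 10252 with OSM, 8435 without OSM and 34549 in fresh MuSC. Pax7, the defining gene of satellite cells, had 431 with OSM, 282 without OSM and 4006 in fresh MuSC. Cardiac markers were close to the floor throughout. None of 7 was above it in MuSC +OSM, 2 were in MuSC −OSM (Myh6 at 94 and Myl3 at 77) and 1 in fresh MuSC (Myl3 at 74), and the sums were 121 with OSM, 245 without OSM and 133 in fresh MuSC. Casq2, Atp2a2, Jph2 and Trdn, which the heart also uses, had their highest signals in MuSC −OSM, on an array where Nppa (32), Tnni3 (5), Myl7 (6) and Ryr2 (26) were under the floor.

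Other cell types had these sums. Smooth muscle and pericyte genes had 15865 with OSM, 21291 without OSM and 11557 in fresh MuSC, mostly from Acta2, an actin that cultured myoblasts also express, at 13114 with OSM, 19053 without OSM and 6543 in fresh MuSC. That sum hides an opposite direction, since 2 of 6 measured genes of the list were higher with OSM and 0 lower (6.07% and 4.39% of all genes). These were Pdgfrb, a receptor of pericytes and fibroblasts, with a signal of 738 with OSM, 139 without OSM and 661 in fresh MuSC, and Kcnj8, a potassium channel subunit, with 83 with OSM, 23 without OSM and 203 in fresh MuSC, and their part in the ratios was not tested. Fibroblast genes had 8310 with OSM, 2382 without OSM and 27208 in fresh MuSC. Their order was thus the reverse of that of the 10 genes. By the OSM ratio 3 of 5 measured fibroblast genes were at least 2-fold higher and 0 lower (6.07% and 4.39% of all genes). Their median log2 OSM ratio was 1.63, and the part of fibroblast genes in the ratios was not tested. Endothelial genes had 94 with OSM, 107 without OSM and 1192 in fresh MuSC, leukocyte genes 197 with OSM, 161 without OSM and 1341 in fresh MuSC, and Schwann cell genes 211 with OSM, 104 without OSM and 4287 in fresh MuSC. Of these 3 lists, 0 of 6, 1 of 6 and 3 of 3 genes were above the floor with OSM, against 1 of 6, 1 of 6 and 1 of 3 without.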

How the data were processed

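For each of 3 Affymetrix MOE_430_2 arrays, 20 ng of total RNA from sorted mouse MuSC was amplified by 3′ IVT Express reagents. The authors deposited MAS5 signal intensity on a linear scale, and no source used here gives the version of MAS5. The sample labels gave the conditions.

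Ratios were computed from these values in Python 3.11.15 with numpy 2.4.6 and pandas 2.3.3, and drawn with matplotlib 3.10.9. Leaving out 64 controls, 45037 probe sets were used. Of these, 34945 name 1 gene, 932 name several and 9160 list no gene, and only those with 1 gene were read as genes. The steps were tested on simulated data.

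The 10 genes and all gene lists were chosen with earlier results of these data known, so their counts and medians are descriptions. Named are the 10 genes, every gene of the calcium handling list that was at least 2-fold changed in MuSC +OSM over MuSC −OSM, up to 3 further genes of each of its role groups with the largest ratio in MuSC −OSM over fresh MuSC, up to 4 bright genes of a marker list, and the 5 genes of most similar pattern. Canx, Atp2a3, Atp2b1, Ppp3ca, Ryr2, Ryr3, Pln, Trpc1, Pax7, Itga7, Myod1, Myf6, Pdgfrb, Kcnj8, the sarcomere list genes past 2-fold and the cardiac markers were named with their values known, in part as a check of absence. The marker lists cover satellite cells, differentiation regulators, sarcomere, adult fibre, cardiac muscle, smooth muscle and pericytes, fibroblasts, endothelium, leukocytes and Schwann cells. Of the calcium list, 5 genes are not reported here. Array scaling, floor, choice of probe set and fold threshold were varied as alternatives. Protein sequences were not analysed here.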

Additional observations from a re-analysis of the deposited data

How the results depend on the processing

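With OSM against without, the count of 5 lower genes stayed at 5, the same 5, with median-centred arrays, after quantile normalization and when the floor was set to the 25th percentile (11) or the 75th (183). It was 4 with the mean of all probe sets of a gene (Jph1 dropped out), 5 with the second brightest probe set (Ryr1 came in, Jph1 dropped out), 8 at 1.5-fold and 3 at 3-fold (Casq1, Casq2 and Trdn). Their median log2 ratio of -1.07 lay between -1.07 and -0.90 under these settings. In MuSC −OSM over fresh MuSC 10 genes were higher, against 9 with the mean of probe sets and 7 with the second probe set, and the median of 3.65 became 2.80 with the floor at the 75th percentile, which raises the low signals of fresh MuSC. In MuSC +OSM over fresh MuSC, 9 became 10 with either scaling, when Casq1 passed 2-fold, 7 with the mean and 6 with the second probe set, and the median of 2.88 became 2.26 with the floor at the 75th percentile. Jph2 in this comparison reversed to -0.17 with its second probe set, and Atp2a2 in MuSC +OSM over MuSC −OSM had 0.09 with the mean and 0.06 with the second probe set. Causes other than those named were not tested.

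Among the further calcium handling genes, the counts and medians given here are mainly those that changed by more than 1.5-fold. The 9 lower with OSM became 5 with the floor at the 75th percentile, 17 at 1.5-fold and 3 at 3-fold. Smaller changes took these 9 to 12 with the floor at the 25th percentile, 6 with the mean and 7 with the second probe set. The 2 higher became 4 with the floor at the 25th percentile, 0 with it at the 75th, 1 with the mean, the second probe set or 3-fold, and 5 at 1.5-fold. In MuSC −OSM over fresh MuSC the 8 lower became 5 with median-centred arrays, 14 and 4 with the floor at the 25th and 75th percentile and 5 at 3-fold, and the median of 0.62 became 1.21 with median-centred arrays. In MuSC +OSM over fresh MuSC the 8 lower became 5 with median-centred arrays and 3 at the 75th percentile floor, the 20 higher became 13 with the mean or the second probe set, and the median of 0.54 became 1.17 with median-centred arrays. Median-centring moved the median of all genes from -0.01, -0.14 and -0.14 to 0.15, 0.36 and 0.57 in MuSC +OSM over MuSC −OSM, MuSC −OSM over fresh MuSC and MuSC +OSM over fresh MuSC. Of all genes past 2-fold, 58.0%, 42.4% and 44.5% were then higher in the main setting and 72.6%, 69.9% and 80.3% with median-centred arrays. Of the 179 alternative values of the ratios of the 10 genes, 147 stayed within 1.5-fold. No paired analysis was possible because each condition has 1 array.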
